A study of Mus musculus with 6 samples.

Results

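A set of 8 genes that mark the cortical projection neuron lineage was followed library by library, namely Eomes, Tbr1, Fezf2, Bcl11b, Tle4, Foxp2, Cux2 and Bcl11a. They were chosen by name, from knowledge of cortical development and with earlier results of these data known. No threshold on a measured value was used, and they are 8 of the 51733 gene symbols counted. RNA-seq was run on Sox2-positive neural progenitor cells (NPCs) sorted from mouse neural tubes at E13.5, in 3 control and 3 Ybx1-KO libraries that are lettered here A to C and D to F. All embryos were of the C57BL/6 strain by their labels, and the sort relied on a Sox2-eGFP reporter allele, so both groups carried it. The control embryos were labelled wildtype and are described in the paper as siblings of knockouts. The Ybx1-KO embryos were homozygous for the germline null allele Ybx1tm1Ley. The knockout was therefore present in every tissue of the embryo and not in the NPCs alone. Loss of Ybx1 is known to cause exencephaly, an open and malformed brain, and whether the sequenced embryos had it is not given in the sources used here. The neural tube holds both brain and spinal cord, and whether several embryos were pooled per library is not given either. No source says what separates the libraries of a group, so p-values measure only the spread between these samples. The title numbers of controls A and B start alike, as do those of Ybx1-KO D and E, and the labels do not say what the numbers mean. No title number is shared between a control and a Ybx1-KO library. Whether these controls were littermates of these knockouts is not given by the labels.

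The projection neurons of the cerebral cortex are excitatory neurons that send axons to other parts of the brain and to the spinal cord. They arise from radial glia of the dorsal telencephalon, often through intermediate progenitors, and deep-layer neurons are born before upper-layer ones. Eomes, also called Tbr2, is the T-box factor of intermediate progenitors. Tbr1 is the T-box factor of early-born deep-layer neurons, Fezf2 and Bcl11b (Ctip2) act in neurons that project below the cortex, and Tle4 and Foxp2 mark corticothalamic neurons. Cux2 marks upper-layer neurons and part of their progenitors, and Bcl11a (Ctip1) acts in projection neurons of several layers. Eomes, Tbr1 and Fezf2 are largely forebrain genes at this age, whereas the others are also used in the striatum, hindbrain or spinal cord.

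Values are CPM, the share of counts on genes that a gene took, scaled by TMM, always given in the order A, B, C for controls and D, E, F for Ybx1-KO, and log2 fold changes are Ybx1-KO minus control from edgeR's quasi-likelihood test, adjusted by Benjamini-Hochberg over 21981 genes tested. Calls required an adjusted p under 0.05 together with more than a 1.5-fold change. The libraries held 20841990 to 23883542 counts on genes in the controls and 4743279 to 13321952 in Ybx1-KO, where F was the shallowest. In F, genes took 7.22% of read pairs and 59.5% lay outside them, and olfactory, vomeronasal and taste receptor genes, which NPCs should not use, summed to 2793 CPM against 24.0 to 98.9 CPM in the other 5 libraries. Ybx1 itself stood at 235, 524 and 303 CPM in the controls, against 124, 54.6 and 9.41 CPM in Ybx1-KO. Every Ybx1-KO library was below every control, with a log2 fold change of −2.49 (SE 0.683, edgeR adjusted p = 0.341), although Ybx1 RNA was still counted in all of them. edgeR called no gene of the 21981, with 1517 genes higher and 915 lower at an unadjusted p below 0.05. DESeq2 called 118 genes higher and 92 lower in Ybx1-KO, none of them a member, and limma-voom called 0 in either direction. On the same genes edgeR called 26 higher and 39 lower without control B, 250 higher and 124 lower without Ybx1-KO E, and 33 higher and 27 lower without Ybx1-KO F.

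Of the 8 members, 7 had a lower fitted level in Ybx1-KO than in controls, against 38.7% of all genes tested, and Tle4 did not. None of the 8 was called, with edgeR adjusted p between 0.320 and 0.788, so none passed the test with all 6 libraries. Of the 8, 6 were lower at an unadjusted p below 0.05, against 4.16% of all genes tested, and 3 had all Ybx1-KO values under all control values, against 8.15% of all genes tested. That count was also 3 under RLE and upper quartile scaling, but 1, Bcl11a, under scaling by the library total, against 5.15% of all genes tested on that scale. The median log2 fold change of the 8 members was −1.46, that of all tested genes 0.32 and that of tested protein-coding genes 0.05. Of tested protein-coding genes, 47.5% had a negative log2 fold change and 5.89% were lower at an unadjusted p below 0.05. Under TMM, 10.6% of them lay below every control. More than 1 pattern was seen among the lower members. Eomes, Tbr1 and Fezf2 were 29.1- to 144-fold apart between the highest and the lowest control, with control B below all 3 Ybx1-KO libraries, and 14.2% of all tested genes spanned as wide a range as Fezf2. Bcl11b, Bcl11a and Foxp2 had smaller differences, and control B stood above every Ybx1-KO library under TMM. For Bcl11b, however, control B was nearer to Ybx1-KO D and E than to A and C. In bulk RNA, fewer cells of a type and less RNA per cell cannot be told apart.

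**Figure D1:**
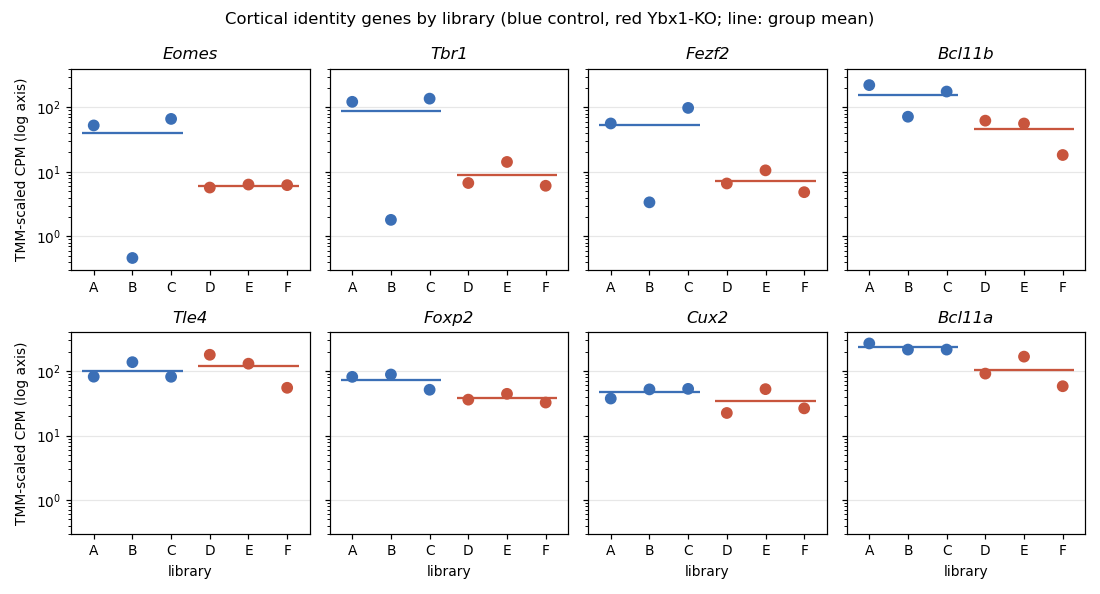
Level of each of the 8 genes in each library, as TMM-scaled CPM on a log axis. Points are single libraries, A to C control and D to F Ybx1-KO. Control B is the lowest of the 6 libraries for Eomes at 0.462 CPM, for Tbr1 at 1.80 CPM and for Fezf2 at 3.37 CPM, and on this scale lies above every Ybx1-KO library for Bcl11b, Foxp2 and Bcl11a.

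Eomes (ENSMUSG00000032446.14, GRCm38 chr9:118478212-118486132, plus strand) marks the step between radial glia and neurons. It stood at 52.5, 0.462 and 66.3 CPM in the 3 controls, against 5.71, 6.35 and 6.22 CPM in Ybx1-KO. Controls A and C were far above the other 4 libraries, control B was the lowest of all, and the 3 Ybx1-KO libraries stood close together, so the groups overlapped. The value of control B rested on 10 counts, against 1112 and 1318 in A and C and 45 to 62 in Ybx1-KO. Mean levels were 39.7 ± 34.7 CPM in controls and 6.10 ± 0.341 CPM in Ybx1-KO (SD, n = 3 each). The log2 fold change was −2.70 with a 95% interval of −4.65 to −0.76 (edgeR, unadjusted p = 0.00948, adjusted p = 0.428), and limma-voom gave −0.92. Without control B it was −3.28 with an adjusted p of 0.00133 in edgeR, past the threshold for a call. Leaving out a high control gave −2.48 without A and −2.12 without C (edgeR adjusted p = 0.792 and 0.645). It was also called without Ybx1-KO D or without E when the filter on low genes was applied again, as were Tbr1, Fezf2 and Bcl11b.

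Tbr1 (GRCm38 chr2:61802930-61814114, plus strand), which specifies early-born deep-layer neurons, resembled Eomes in its order of libraries. Its levels were 122, 1.80 and 137 CPM in the 3 controls, against 6.72, 14.2 and 6.09 CPM in Ybx1-KO. Again A and C were high, B was the lowest, and Ybx1-KO lay between them. The log2 fold change was −3.26 (SE 0.905, edgeR adjusted p = 0.351), the lowest among the 8 members, and limma-voom gave −1.84. It was called without control B, at −3.84 (edgeR adjusted p = 0.00106), and also without Ybx1-KO E, the highest of its group, at −3.76 (edgeR adjusted p = 0.00981). It was not called without control A, at −2.97, or without C, at −2.77.

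Fezf2 (GRCm38 chr14:12342094-12348189, minus strand), which directs neurons to subcerebral targets, was the last member with this pattern. It stood at 56.3, 3.37 and 98.1 CPM in the 3 controls, against 6.61, 10.6 and 4.84 CPM in Ybx1-KO. Control B was the lowest library by a narrower margin than for Tbr1 or Eomes. The log2 fold change was −2.84 (SE 0.764, edgeR adjusted p = 0.320), and limma-voom gave −1.87. It was called without control B, at −3.39 (edgeR adjusted p = 0.00153), and without Ybx1-KO E, at −3.19 (edgeR adjusted p = 0.0116). Without control C, its highest library, it was −2.02 (edgeR adjusted p = 0.645), and without A −2.82, neither called. For all of Eomes, Tbr1 and Fezf2 the two-sided exact permutation test of the mean level over 3 against 3 libraries gave p = 0.4, and 0.1 is the smallest p this design allows.

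A gene of the dorsal telencephalon and the Hox genes were set beside these 3 members. Emx1, a marker of dorsal telencephalic progenitors, stood at 8.45, 0.092 and 18.9 CPM in controls and at 0, 3.48 and 1.25 CPM in Ybx1-KO. Control B was thus the lowest control for Emx1, as for Eomes, Tbr1 and Fezf2, while Ybx1-KO D was listed at 0. For Eomes, Tbr1 and Fezf2, but not for Emx1, control B was the lowest of all 6 libraries, as for 8.33% of all tested genes. Control B was also the lowest control for Emx2, Dmrta2, Dmrt3, Lhx2 and Nr2e1, and the highest for Lef1 and Sp8. Between the groups, other genes of the telencephalon progenitor list had mixed signs. Log2 fold changes were 0.26 for Emx2, 0.56 for Dmrta2 and 0.61 for Dmrt3, but −0.71 for Lhx2 and −0.18 for Nr2e1. Over the 9 tested genes of this list, 4 were positive and 5 negative, with a median of −0.18. Emx2, Dmrta2, Dmrt3, Lhx2, Nr2e1, Lef1 and Sp8 were named after their values were seen. The summed level of 18 Hox genes of groups 4 to 9, which mark the hindbrain and spinal cord, ran the other way, at 85.2, 792 and 240 CPM in the controls, against 985, 1039 and 449 CPM in Ybx1-KO. All 18 had a positive log2 fold change, against 61.3% of all genes tested, 6 of them at an unadjusted p below 0.05 against 6.90% of all genes tested, and none was called. The part that the regional make-up of the libraries played in the levels of Eomes, Tbr1 and Fezf2 was not tested. Divided by the summed level of 10 telencephalon progenitor genes and multiplied by 100, Tbr1 was 34.1, 0.989 and 27.0 in the 3 controls, against 2.27, 5.49 and 5.47 in Ybx1-KO. The order of the groups stayed as in the levels. In control B, Lhx2 gave 90.9 and Lef1 44.6 of the 182 CPM of this sum, and Emx1 0.092 CPM. The ratio thus rested largely on Lhx2 and Lef1 there and need not follow the amount of telencephalic RNA.

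The promoters of Eomes, Tbr1 and Fezf2, the members that differed together between libraries, and that of Tle4, the member that was not lower, are shown for comparison. Each is the 250 bases before the start site in the RefSeq annotation of GRCm38.p6, written in the direction of the gene, and capitals mark a CCAAT or its reverse complement ATTGG, the letters of the Y-box element after which Ybx1 was named. The windows are chr9:118477939-118478188 on the plus strand for Eomes, chr2:61804203-61804452 on the plus strand for Tbr1, chr14:12345866-12346115 on the minus strand for Fezf2, and chr19:14598184-14598433 on the minus strand for the first Tle4 start. Against the gene spans printed with each member, the windows of Tbr1 and Fezf2 lie inside the gene, and those of Eomes and Tle4 lie before it. The windows are therefore not alike in position.
Eomes: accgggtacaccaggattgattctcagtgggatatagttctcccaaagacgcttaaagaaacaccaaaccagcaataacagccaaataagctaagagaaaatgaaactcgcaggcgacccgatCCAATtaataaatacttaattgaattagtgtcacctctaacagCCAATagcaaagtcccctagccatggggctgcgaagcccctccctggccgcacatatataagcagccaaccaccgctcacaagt
Tbr1: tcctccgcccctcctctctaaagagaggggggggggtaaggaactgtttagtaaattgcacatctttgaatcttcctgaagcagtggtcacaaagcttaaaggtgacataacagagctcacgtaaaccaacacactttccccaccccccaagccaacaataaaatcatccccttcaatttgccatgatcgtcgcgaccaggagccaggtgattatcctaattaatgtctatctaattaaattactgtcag
Fezf2: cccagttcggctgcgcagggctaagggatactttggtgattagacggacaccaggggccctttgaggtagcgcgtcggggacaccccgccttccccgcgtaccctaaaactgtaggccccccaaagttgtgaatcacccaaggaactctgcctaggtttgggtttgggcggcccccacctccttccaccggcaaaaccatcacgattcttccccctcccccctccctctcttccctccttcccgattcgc
Tle4: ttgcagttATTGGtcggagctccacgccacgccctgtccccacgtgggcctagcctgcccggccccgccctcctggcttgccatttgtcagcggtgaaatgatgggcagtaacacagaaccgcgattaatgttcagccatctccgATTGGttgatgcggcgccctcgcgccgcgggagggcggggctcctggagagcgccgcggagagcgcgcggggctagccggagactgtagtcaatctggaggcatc

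The promoter table held 9 starts for 7 of the 8 members, and none for Foxp2. CCAAT, searched on both strands, was found 2 times in the window of Eomes, 2 times in that of the first Tle4 start and 1 time in that of Bcl11a, and 33.8% of 32851 promoters held it. The windows of Tbr1, Fezf2, Bcl11b and Cux2 held none. CAGATG, an E-box of the kind that neurogenic bHLH factors bind, was found on either strand only in the second Cux2 window, and 14.4% of all promoters held it. TCACACC, the core letters of a T-box element, was in no member's window, and 3.33% of all promoters held it. The windows of Eomes and Tbr1 had 46.4% and 45.2% G and C and that of Fezf2 61.2%, with a median of 52.4% over all promoters. These matches describe letters in a window and not sites of binding, and the windows differ in position relative to the gene spans.

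Bcl11b (GRCm38 chr12:107910403-108003602, minus strand), a zinc finger factor of subcerebral neurons and also of striatal ones, had a lower mean in Ybx1-KO, with less spread between controls than the members before it. Its levels were 222, 71.6 and 176 CPM in the 3 controls, against 62.2, 56.3 and 18.3 CPM in Ybx1-KO. The groups did not overlap on this scale, but control B stood nearer to Ybx1-KO D and E than to A and C. Scaled by the library total alone, B was 65.0 and D 65.5 CPM, and the groups overlapped. Mean levels were 156 ± 76.9 CPM and 45.6 ± 23.9 CPM (SD, n = 3 each), with a log2 fold change of −1.78 (SE 0.521, edgeR adjusted p = 0.387). The two-sided exact permutation test gave p = 0.1, its smallest possible value, for Bcl11b, Foxp2 and Bcl11a alike, or 0.267 adjusted over the 8 members. Divided by the telencephalon progenitor sum and multiplied by 100, Bcl11b was 62.0, 39.3 and 34.7 in controls and 21.1, 21.7 and 16.4 in Ybx1-KO. Of the 8 members only Bcl11b had no overlap on this scale (two-sided exact permutation p = 0.1, adjusted p = 0.495 over 26 ratios computed). In control B that sum rested largely on Lhx2 and Lef1, as for the Tbr1 ratio. Divided by the sum of 12 pan-neuronal genes instead, Bcl11b overlapped between the groups, at 6.65, 1.33 and 4.72 in controls against 1.36, 1.47 and 1.00 in Ybx1-KO.

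Foxp2 (GRCm38 chr6:14901349-15441977, plus strand), a forkhead factor of layer 6 neurons that also marks striatal and hindbrain neurons, was highest in control B. It stood at 81.4, 88.5 and 51.3 CPM in the 3 controls, against 36.0, 44.4 and 32.5 CPM in Ybx1-KO. Every Ybx1-KO library was below every control under TMM, and control C stood nearer to Ybx1-KO E than to A. Scaled by the library total, C was 47.3 and F 49.5 CPM, and the groups overlapped. The log2 fold change was −0.97 with a 95% interval of −1.77 to −0.16 (edgeR, unadjusted p = 0.0213, adjusted p = 0.451).

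Bcl11a (GRCm38 chr11:24078056-24174123, plus strand), a paralogue of Bcl11b used widely in the developing nervous system, was even between controls. Its levels were 268, 215 and 215 CPM in the controls, against 91.4, 168 and 58.2 CPM in Ybx1-KO. All controls were above all Ybx1-KO libraries, among which E was the highest, and this held under all 4 scalings run. The log2 fold change was −1.14 (SE 0.458, edgeR unadjusted p = 0.0239, adjusted p = 0.451).

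Cux2 (GRCm38 chr5:121856366-122050102, minus strand), the upper-layer gene, was not different beyond the spread between libraries. It stood at 37.5, 52.0 and 53.0 CPM in the 3 controls, against 22.4, 52.5 and 26.4 CPM in Ybx1-KO. Ybx1-KO D and F were below every control, whereas E matched controls B and C. The log2 fold change was −0.49 with a 95% interval of −1.35 to 0.37 (edgeR, unadjusted p = 0.244), and the two-sided exact permutation test gave p = 0.3. Without Ybx1-KO E the log2 fold change was −0.96, still not called.

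Tle4 (GRCm38 chr19:14448150-14598051, minus strand), a Groucho-family co-repressor of corticothalamic neurons that is also widely used elsewhere, was the only member with a positive log2 fold change. Its levels were 81.9, 137 and 81.6 CPM in the 3 controls, against 179, 130 and 55.0 CPM in Ybx1-KO. The highest and the lowest library both belonged to Ybx1-KO, and among controls B was the highest, the reverse of its place for Eomes, Tbr1 and Fezf2. The log2 fold change was 0.28 with a 95% interval of −0.70 to 1.25 (edgeR, unadjusted p = 0.557), near the median of 0.32 over all tested genes, and it turned to −0.14 without Ybx1-KO D. Divided by the pan-neuronal sum and multiplied by 100, Tle4 was 2.46, 2.54 and 2.19 in controls and 3.91, 3.39 and 3.02 in Ybx1-KO, with every Ybx1-KO library above every control (two-sided exact permutation p = 0.1, adjusted p = 0.495 over 26 ratios). Divided by the telencephalon progenitor sum it overlapped, at 22.9, 75.5 and 16.1 in controls against 60.5, 50.2 and 49.5 in Ybx1-KO.

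**Figure D2:**
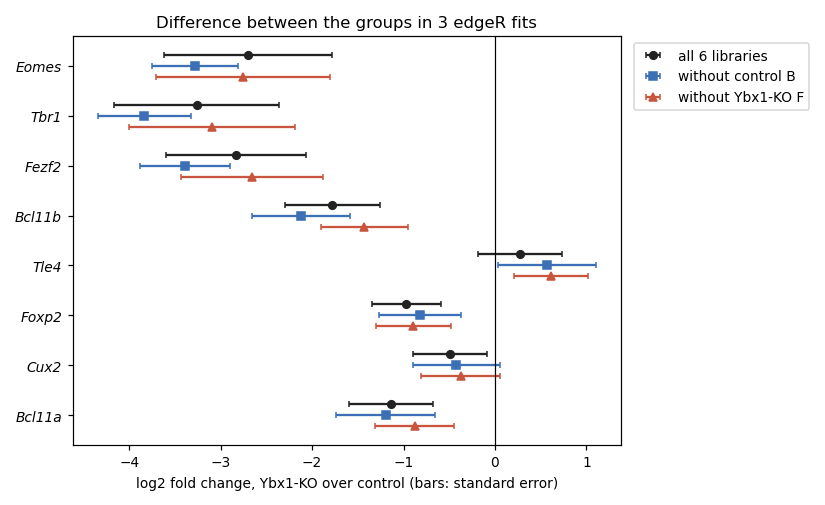
Log2 fold change of each of the 8 genes, Ybx1-KO over control, in 3 edgeR fits, with all 6 libraries, without control B and without Ybx1-KO F. Bars are standard errors. Eomes, Tbr1 and Fezf2 move from −2.70, −3.26 and −2.84 to −3.28, −3.84 and −3.39 without B, and Tle4 lies above 0 in all 3 fits.

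Without control B and on the same genes, the log2 fold changes of the remaining members were −2.12 for Bcl11b, −1.19 for Bcl11a, −0.82 for Foxp2, −0.42 for Cux2 and 0.57 for Tle4, and none of these was called. Then 6 of the 8 members had every Ybx1-KO library below both controls, against 11.5% of all genes tested, and 3 were called lower, against 0.177%. Without Ybx1-KO F, 7 members were still lower, no member was called, and the median log2 fold change was −1.16 against −0.08 over all genes. With both B and F left out, Bcl11b was called as well, at −1.78 (edgeR adjusted p = 0.0240), together with Eomes, Tbr1 and Fezf2, against 0.901% of all genes tested. The fit without both was added after the data were seen. Control B was the deepest library, and it was the lowest of all for Eomes, Tbr1 and Fezf2. Leaving it out removed the values that opposed their calls, so the calls without B are no independent evidence. Reads of the kind seen on receptor genes, spread evenly over exons, would account for an estimated 45.8% of the Tbr1 count in F, 33.9% of that of Eomes and 32.0% of that of Fezf2. The estimate in F was 25.6% for Foxp2, 22.6% for Bcl11b, 19.4% for Cux2, 11.5% for Bcl11a and 5.26% for Tle4. In the other 5 libraries this share was at most 4.72%, for Eomes in B. With that background subtracted, the log2 fold changes were −2.82 for Eomes, −3.38 for Tbr1 and −2.90 for Fezf2, and no member was called.

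Per exon length, the order of the 8 genes differed between the groups. In controls the mean FPKM, which divides by exon length and the library total, was 18.6 for Bcl11b, 16.9 for Bcl11a, 16.6 for Tle4, 16.5 for Fezf2, 15.3 for Tbr1 and 9.21 for Eomes, with Cux2 at 4.44 and Foxp2 at 4.29. Control libraries ranged from 8.01 to 27.8 FPKM for Bcl11b alone, so the first 6 could not be ordered beyond their spread, and neither could Cux2 and Foxp2. In Ybx1-KO, Tle4 led at 21.5 FPKM with a range of 14.7 to 33.1, above all libraries of Bcl11a at 6.74 to 9.32 FPKM. Tbr1 at 1.63 FPKM and Eomes at 1.62 FPKM came last and did not differ beyond their ranges of 1.29 to 1.90 and 1.12 to 2.28. In F these FPKM values also hold the background described for its reads. Summed over the 8 members, the level was 922, 571 and 878 CPM in the 3 controls, against 410, 482 and 208 CPM in Ybx1-KO, without overlap (two-sided exact permutation p = 0.1, the smallest possible). With the members weighted alike, as a mean of log2(CPM + 1), the difference was −1.18 (two-sided exact permutation p = 0.3). After division by the pan-neuronal sum, the log2 ratio of means was −0.91 (two-sided exact permutation p = 0.3).

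Relatives of the members gave mixed values. The log2 fold changes were −0.15 for Cux1, −0.12 for Foxp1 and 0.69 for Foxp4, and those of the Groucho-family genes Tle1, Tle2, Tle3 and Aes were 0.07, −0.39, 0.48 and −0.03. None of these genes passed the test for a call. Fezf1, Tbx21 and Tle6 were too low to be tested. As a within-library ratio of counts, Foxp2 over Foxp1 was 1.70, 1.23 and 1.02 in the 3 controls, against 0.729, 0.709 and 0.732 in Ybx1-KO. All 3 Ybx1-KO ratios were below all control ratios and close to each other (two-sided exact permutation p = 0.1, adjusted p = 0.495 over 26 ratios). The ratio in F also holds the background described for its reads. Cux2 over Cux1 was 0.30, 0.279 and 0.385 against 0.140, 0.328 and 0.314, and the groups overlapped.

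**Figure D3:**
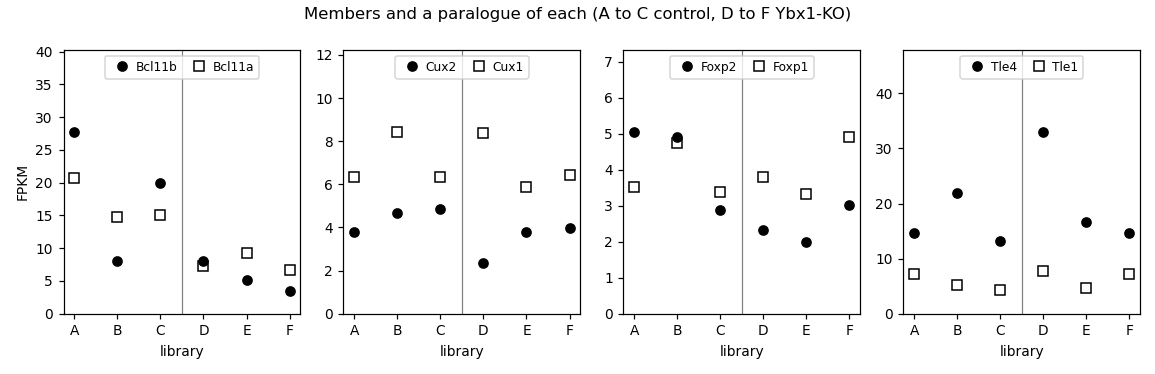
FPKM of 4 members and a paralogue of each in the 6 libraries. Filled circles are Bcl11b, Cux2, Foxp2 and Tle4, and open squares are Bcl11a, Cux1, Foxp1 and Tle1. Foxp2 is lower in D to F than in A and B beside a Foxp1 without such a difference, and Tle4 is above Tle1 in every library.

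Eomes was also set beside other genes of intermediate progenitors. Of 12 such genes tested, 9 had a positive log2 fold change, as did 61.3% of all genes tested, and 3 a negative one. At an unadjusted p below 0.05, 5 were higher and 1 lower, against 6.90% and 4.16% of all genes, and none was called. Their median log2 fold change was 0.76, against 0.32 over all genes, and 2 lay above every control, namely Neurog1 and Gadd45g, against 4.91% of all genes tested. As many, Sstr2 and Neurod1, lay below every control, against 8.15%. Gadd45g and Neurod1 overlapped under scaling by the library total. On that scale the counts were 2 above and 1 below, against 1273 and 1133 of 21981 genes. Neurog1, a proneural bHLH factor, was 2.55, 11.4 and 7.84 CPM in the 3 controls, against 21.6, 35.1 and 19.8 CPM in Ybx1-KO, all above every control, with a log2 fold change of 1.81 (edgeR adjusted p = 0.384). Nhlh1, a bHLH factor of newborn neurons, had a log2 fold change of 1.28. Gadd45g, a stress and cell-cycle gene expressed in neurogenic progenitors, had one of 1.08, which rested mainly on Ybx1-KO D. Its levels were 21.9, 29.4 and 28.9 CPM in controls against 104, 33.7 and 31.5 CPM in Ybx1-KO. Sstr2, a somatostatin receptor found in cortical intermediate progenitors, was 23.6, 15.1 and 38.1 CPM in controls against 7.61, 12.2 and 5.53 CPM in Ybx1-KO, with a log2 fold change of −1.59 (edgeR adjusted p = 0.387). Sstr2 was thus below every control, as Neurog1 was above, and most genes of this list are used in many regions of the neural tube. Without Ybx1-KO F the median was 1.00, and without control B 0.71.

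Of 24 further genes of cortical neurons tested, 21 had a negative log2 fold change, against 38.7% of all genes tested, with a median of −1.01. At an unadjusted p below 0.05, 12 were lower and 0 higher, against 4.16% and 6.90% of all genes. For Nfib, Zfpm2, Ldb2, Mef2c and Rorb, 5 genes, all Ybx1-KO values were under all control values, against 8.15% of all genes. Ldb2, Mef2c and Rorb overlapped under scaling by the library total, but 5 genes of the list lay below every control there too, against 5.15% of all genes. The count was 3 under RLE and 4 under upper quartile scaling, against 1515 and 1558 of 21981 genes. Neurod6, a bHLH factor of cortical excitatory neurons, stood at 490, 16.1 and 347 CPM in the 3 controls, against 21.0, 3.48 and 4.56 CPM in Ybx1-KO. Control B was again far below A and C, within the range of Ybx1-KO, and the log2 fold change was −4.87 (SE 0.969, edgeR adjusted p = 0.195). Nfib, a nuclear factor of deep-layer neurons and glia, was 679, 116 and 431 CPM in controls against 34.7, 74.9 and 41.5 CPM in Ybx1-KO, with a log2 fold change of −3.02 (SE 0.605, edgeR adjusted p = 0.195). Zfpm2, a corticothalamic cofactor, was 42.6, 19.4 and 23.6 CPM against 2.80, 9.84 and 4.43 CPM, with a log2 fold change of −2.32 (edgeR adjusted p = 0.233). For Nfib and Zfpm2 control B stood above every Ybx1-KO library, as for Bcl11b. No gene of the list was called with all libraries. Without control B, 6 were called lower, against 0.177% of all genes tested, and without Ybx1-KO F 3 were, against 0.123% of all genes tested in that fit.

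**Figure D4:**
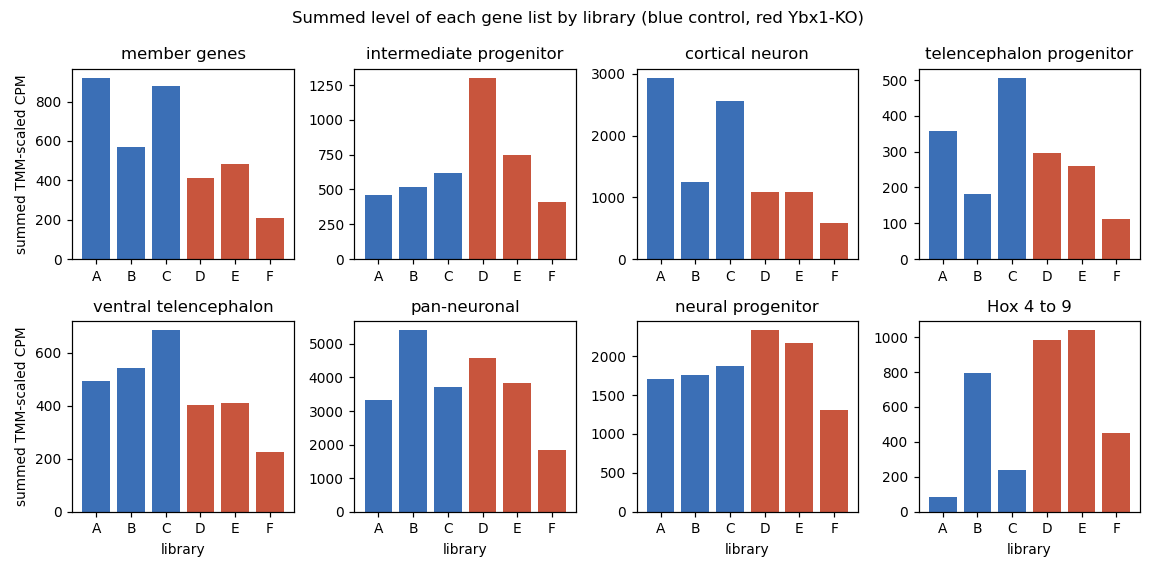
Summed TMM-scaled CPM of the 8 members and of 7 marker lists, 1 bar per library, with controls A to C in blue and Ybx1-KO D to F in red. The cortical neuron list stands at 2937 CPM in A and 2553 CPM in C, at 1248 CPM in B and at 591 to 1093 CPM in Ybx1-KO, and the Hox list is lowest in A and C.

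Markers of other cells were measured beside the members. The 10 genes of neural progenitors, the cell type the sort aimed at, summed to 1701 to 1876 CPM in controls and 1311 to 2332 CPM in Ybx1-KO, and 12 pan-neuronal genes to 3331 to 5404 CPM and 1826 to 4576 CPM, so neuronal RNA was present in the sorted cells. Sox2, the gene of the sort, was counted in all libraries, at 17.2 to 47.9 CPM in controls and 23.5 to 49.9 CPM in Ybx1-KO. Both lists overlapped between the groups. The signs given next for marker lists stand beside 61.3% positive and 38.7% negative over all genes tested. The 13 genes of the ventral telencephalon and GABAergic neurons, where Bcl11b and Foxp2 are also used, summed to 494 to 684 CPM in controls and 225 to 411 CPM in Ybx1-KO, with 11 of 13 log2 fold changes negative. The 14 genes of hindbrain and spinal neurons summed to 113, 346 and 161 CPM in the controls, against 323, 307 and 152 CPM in Ybx1-KO, with 12 of 14 log2 fold changes positive and 1 of them at an unadjusted p below 0.05. Control B held more of them than A and C. The 7 mesenchymal genes summed to 870, 133 and 218 CPM in the controls, against 112, 124 and 75.7 CPM in Ybx1-KO, with all 7 log2 fold changes negative. The sums over erythroid genes were 475 to 1151 CPM and 160 to 941 CPM, those over endothelial genes 17.6 to 39.1 CPM and 11.3 to 33.2 CPM, and those over microglial genes 8.95 to 31.5 CPM and 3.36 to 21.7 CPM. The 6 tested Cajal-Retzius genes, of early-born cortical neurons that share several markers with other regions, had a median log2 fold change of 0.99. None of these genes was called, and the part of such cells in the values of the members was not tested.

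Across the 6 libraries, the genes whose log2(CPM + 1) was most like that of a member were named among 10856 protein-coding genes of at least 5 CPM on average. Among the genes most like Eomes were Tbr1 (Pearson r = 0.978) and Gpx7 (r = 0.974), and among those most like Tbr1 were Fezf2 (r = 0.986) and Gpx7 (r = 0.983). Nr4a3 was the most alike to Fezf2 (r = 0.997), Snx1 to Bcl11b (r = 0.998), Dclk2 to Bcl11a (r = 0.997), Polr1e to Cux2 (r = 0.996) and Tfcp2 to Tle4 (r = 0.994), and Creb1 was among the genes most like Foxp2 (r = 0.996). Between members, r was 0.952 for Eomes and Fezf2, 0.873 for Bcl11b and Bcl11a, 0.858 for Foxp2 and Bcl11a, 0.017 for Eomes and Foxp2, and −0.470 for Eomes and Tle4. Bcl11b was nearer to Fezf2 (r = 0.809) and Tbr1 (r = 0.757) than to Foxp2 (r = 0.657). These coefficients describe 6 points that share library, depth and scaling, and the highest value among so many genes is high by selection.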

How the data were processed

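Total RNA of Sox2-positive cells from E13.5 neural tubes was sequenced by the authors as stranded paired-end libraries, and counts per gene symbol were deposited by the authors without normalization, 1 table per library. The submitters' notes name HTSeq 0.6.1p1, CASAVA, mm10 and GRCm38.p5, and the paper names GENCODE for counting. The aligner and the strand setting are not given in the sources used here, so counts of antisense or overlapping genes are uncertain. Each library's group came from its genotype label.

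The test took genes whose mean FPKM exceeded 1 in at least 1 group, using exon lengths of GENCODE M21 on GRCm38. Of 51733 symbols 47624 were found under that symbol, 356 under an earlier one and 3753 were not found, and unmatched genes needed a mean CPM above 1. The counter's own tallies were left out. Counts were scaled by TMM and tested with edgeR 4.0.16 (quasi-likelihood) in R 4.3.3, with Benjamini-Hochberg adjustment. The study used limma-voom, which was run here as an alternative (limma 3.58.1), as were DESeq2 1.42.0, 3 other scalings, other filters, robust dispersion, protein-coding genes alone and leaving out each library. Single values were compared with the two-sided exact permutation test. Scripts were tested on simulated data. Receptor background was taken per exon kilobase over 1498 protein-coding receptor genes. Plots used matplotlib 3.10.9 (Python 3.11.15).

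The smallest amount taken as shown, 3 counts, was 0.138 TMM-scaled CPM in the deepest and 0.415 in the shallowest library, which covers counting error only. The members and the gene lists were chosen with earlier results of these data known. Genes named are the members, Ybx1, listed relatives, the 4 genes with the smallest p of the intermediate progenitor and cortical neuron lists (Neurod2 is not described), the 3 genes most like a member, of which not all are given, and marker genes at the highest level or at 0. A few genes that meet this rule are not reported by name here. Ldb2, Mef2c and Rorb complete a count, and the counts without control B, without Ybx1-KO F and without both, and the counts of groups without overlap under other scalings, were added after seeing the data.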

Additional observations from a re-analysis of the deposited data

How the results depend on the processing

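No paired analysis was possible because no label ties a control to a Ybx1-KO library and the replicate numbers only follow accession order. Over 23 alternatives, 7 members had a negative log2 fold change in all 23. Tle4 reversed only without Ybx1-KO D, to −0.14 on the same genes and −0.16 with the filter applied again, and its values with a library left out ranged from −0.16 to 0.65. Eomes, Tbr1, Fezf2 and Bcl11b were past the threshold in 6, 7, 7 and 3 of the alternatives, and the other 4 members in none. The threshold was passed without a filter on low genes (Eomes, Tbr1 and Fezf2), without control B (the same 3), without Ybx1-KO E on the same genes (Tbr1 and Fezf2), without D or E with the filter applied again (all 4), and without B and F together (all 4). Over the whole table, called genes numbered 118 higher and 92 lower with DESeq2, 113 and 80 without a filter, and 251 and 198 without B and F, and leaving out 1 library gave 0 to 521 higher and 0 to 248 lower. On the same genes these were 26 and 39 without B, 250 and 124 without E and 33 and 27 without F, and with the filter applied again 29 and 42 without B, 521 and 166 without D and 465 and 248 without E. With limma-voom 3 members in place of 6 were lower at an unadjusted p below 0.05. The log2 ratio of mean summed member levels, −1.11, was −0.54 after division by the telencephalon progenitor sum (two-sided exact permutation p = 0.3). The cause of these differences was not tested. The median of all genes was 0.32 under TMM, 0.41 under RLE, 0.39 under upper quartile and 0.53 under total count scaling, and the sign of every member stayed the same under these. The depth of F limits low genes, since 3 counts there are 0.415 CPM.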
